A study of Mus musculus with 4 samples.

Results

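The transcripts of the GABA system were examined in the adult brain of mice given ethanol or saline as pups. Members were chosen by name, as every probe set (a group of probes summarized to 1 value) whose platform annotation gives exactly 1 of 30 listed gene symbols. The rule took 33 of the 35556 probe sets on the array, or 30 of the 19938 genes that a probe set names alone. The 30 genes are 16 subunits of the GABA-A receptor, the 2 subunits of the GABA-B receptor, 3 genes for making GABA and loading it into vesicles, 3 for its uptake and breakdown, 4 for clustering and trafficking of receptors and 2 chloride transporters. Gabrb2 has 3 probe sets and Gabarapl2 has 2, which are called dimmest, middle and brightest by their mean signal.

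Whole-brain RNA was hybridized to 4 Affymetrix Mouse Gene 1.0 ST arrays, 2 of each group, and each array held RNA pooled from 3 males. In the ethanol group, C57BL/6J pups received 20% ethanol in saline under the skin on postnatal days 4 and 7, a time set against the third trimester of human pregnancy. Each day brought 2 doses of 2.5 g/kg, spaced 2 hours apart. Control littermates received saline alone at the same times. According to the labels, mice of both groups were weaned on day 25 and killed on day 60, whereas the methods of the study give other days. Arrays go by their titles, which are control 1 and control 3 for saline and ethanol 2 and ethanol 4 for ethanol. Values are log2 signals as deposited, so that a difference of 1 is a doubling, and differences are given as ethanol minus control.

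Several features of the arrays bear on every value below. For control 1 and ethanol 4 the labels conflict, since the entry for treatment gives the opposite group to the title and source name. Grouping here is by title and source name, and that by the treatment entry was also run. The array medians were 6.61 for control 1, 6.51 for control 3, 6.33 for ethanol 2 and 6.38 for ethanol 4. Over all probe sets the median difference was -0.15, and 80.2% of them were lower on the ethanol arrays. After the 4 arrays were given equal quantiles this shift was -0.00424, and differences are therefore given in both forms. Array ethanol 2 stood apart in pituitary transcripts. Its signal for Gh, growth hormone, was 6.53, against 12.19 to 12.26 on the other arrays. A pool of brains is 1 sample, so a limma p-value here rests on the spread between these pools and on a spread shared over all probe sets. With 2 arrays in each group an exact permutation test cannot give a two-sided p below 0.333. In whole tissue, fewer cells of a type and less RNA per cell cannot be told apart.

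GABA is the main inhibitory transmitter of the adult brain. The GABA-A receptors are chloride channels built from a ring of subunits, most often of the alpha, beta and gamma families, and the alpha subunit largely sets where a receptor is found and which drugs act on it. The GABA-B receptors are coupled to G proteins and act more slowly, through potassium and calcium channels. Ethanol enhances GABA-A receptor currents, and in the newborn brain GABA can still depolarize neurons because the chloride transporters have not reached their adult balance.

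The sequence just upstream of the gene start is given for the 3 genes whose probe sets passed the limits used below, so that the letters can be read beside the measurements. Each is the 250 bases before the RefSeq gene start on build GRCm38.p6, read in the direction of transcription, and capitals mark matches to the motifs searched. Slc6a13 has several RefSeq starts, of which the first listed was taken.
Gabra6: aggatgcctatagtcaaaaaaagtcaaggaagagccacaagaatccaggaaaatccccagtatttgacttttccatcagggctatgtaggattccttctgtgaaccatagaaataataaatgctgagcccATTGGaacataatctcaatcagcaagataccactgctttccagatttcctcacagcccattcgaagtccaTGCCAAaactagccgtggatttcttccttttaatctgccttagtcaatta
Slc6a13: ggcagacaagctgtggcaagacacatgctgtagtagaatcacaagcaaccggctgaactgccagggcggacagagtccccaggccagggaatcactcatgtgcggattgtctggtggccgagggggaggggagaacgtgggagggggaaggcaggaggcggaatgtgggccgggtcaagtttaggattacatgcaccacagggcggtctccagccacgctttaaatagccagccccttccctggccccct
Gabarapl2: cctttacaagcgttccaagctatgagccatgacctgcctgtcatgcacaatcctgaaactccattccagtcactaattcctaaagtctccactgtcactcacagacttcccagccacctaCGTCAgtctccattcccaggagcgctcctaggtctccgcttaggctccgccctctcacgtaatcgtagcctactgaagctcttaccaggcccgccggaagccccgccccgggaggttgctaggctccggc

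The Gabra6 window is chr11:42321073-42321322 on the minus strand, the Slc6a13 window is chr6:121300038-121300287 on the plus strand and the Gabarapl2 window is chr8:111940453-111940702 on the plus strand. Both strands were searched for 5 motifs. These were TTGGCA, a half-site of nuclear factor I, and CCAAT, the box of that name found in many promoters. The others were TGACG, a half-site of the cyclic AMP response element, and TATAAA, the core of the TATA box, with CACGTG as the form of E-box searched. Matches to different motifs can share letters, but those printed do not. In the Gabra6 window, CCAAT was found on the opposite strand, its match beginning 120 bases before the start, and TTGGCA was found on the opposite strand 50 bases before the start. The Gabarapl2 window held TGACG on the opposite strand 130 bases before the start. The Slc6a13 window held none of these letters. Among 32851 windows of this length upstream of RefSeq genes, 12.3% held TTGGCA, 33.8% CCAAT, 17.8% TGACG, 12.4% TATAAA and 6.02% CACGTG. GC content was 40.8% in the Gabra6 window, 60.8% in that of Slc6a13 and 57.2% in that of Gabarapl2, against a median of 52.4% over all windows. CpG pairs numbered 2, 9 and 12, with a median of 6 over all windows. Of the 30 genes, 27 have such a window, and in their first windows CCAAT was found for 11, TTGGCA for 4, TGACG for 3, TATAAA for 3 and CACGTG for 0.

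Across the 33 probe sets, most signals were nearly the same on the 2 control arrays, and most were slightly lower on the ethanol arrays. The control arrays differed by under 0.1 for 25 of the 33, with a median gap of 0.071 and a largest gap of 0.602, and the median gap between the ethanol arrays was 0.094. As deposited, 24 probe sets were lower and 9 higher on the ethanol arrays, where 80.2% of all probe sets were lower. The median difference was -0.10, against -0.15 over all probe sets, so the GABA probe sets were 0.05 above the general shift. With equal quantiles, 20 were lower and 13 higher, against 18119 lower and 17437 higher of all 35556. The median was -0.03, against -0.00424 over all probe sets. When each array was instead centred on its own median, 28 of the 33 were higher and 5 lower. Over all 35556 probe sets, 22827 were higher and 12729 lower. The median was 0.12 for the members, against 0.07 over all probe sets. The direction for the system as a whole therefore turned with the scaling, as did that over all probe sets. The 18 probe sets of GABA-A subunits alone had a median of -0.02 as deposited, 0.10 with equal quantiles and 0.20 with centred arrays, and 1 of them passed the limits described next as higher and 0 as lower in the deposited values. Grouped by the treatment entry, the differences of the 33 probe sets ran from -0.15 to 0.30, with a median of 0.02 against 0.01 over all probe sets.

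Calls were made at the limits of the study, a change of at least 1.2-fold and an unadjusted p under 0.05, with limma. As deposited, 2 of the 33 probe sets passed as higher, where 2.23% of all probe sets did, and 1 passed as lower, where 17.9% did. The remaining 30 passed neither way. With equal quantiles, 2 passed as higher (background 5.71%) and 0 as lower (background 5.87%). In that form 3 had an unadjusted limma p under 0.05, as did 4845 of all 35556 probe sets. With arrays centred on their medians, 6 passed as higher (background 9.09%) and 0 as lower (background 3.91%). After Benjamini-Hochberg adjustment of the deposited values over all probe sets, 0 members were under 0.05, where 0.00281% of all probe sets were. An unadjusted limma p under 0.05 was found for 4 members, and for 7876 of all 35556 probe sets. Adjusted p-values of the members ran from 0.18 to 0.943. The groups did not overlap for 4 probe sets that were higher on both ethanol arrays (background 7.25%) and for 16 that were lower (background 52.7%). With equal quantiles these numbers were 8 (background 24.0%) and 11 (background 24.9%). Under the grouping by the treatment entry 0 members passed in either direction, against a background of 0.917% higher and 0.686% lower. Leaving out ethanol 2, the median difference of the members was -0.06, against -0.12 over all probe sets.

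**Figure D1:**
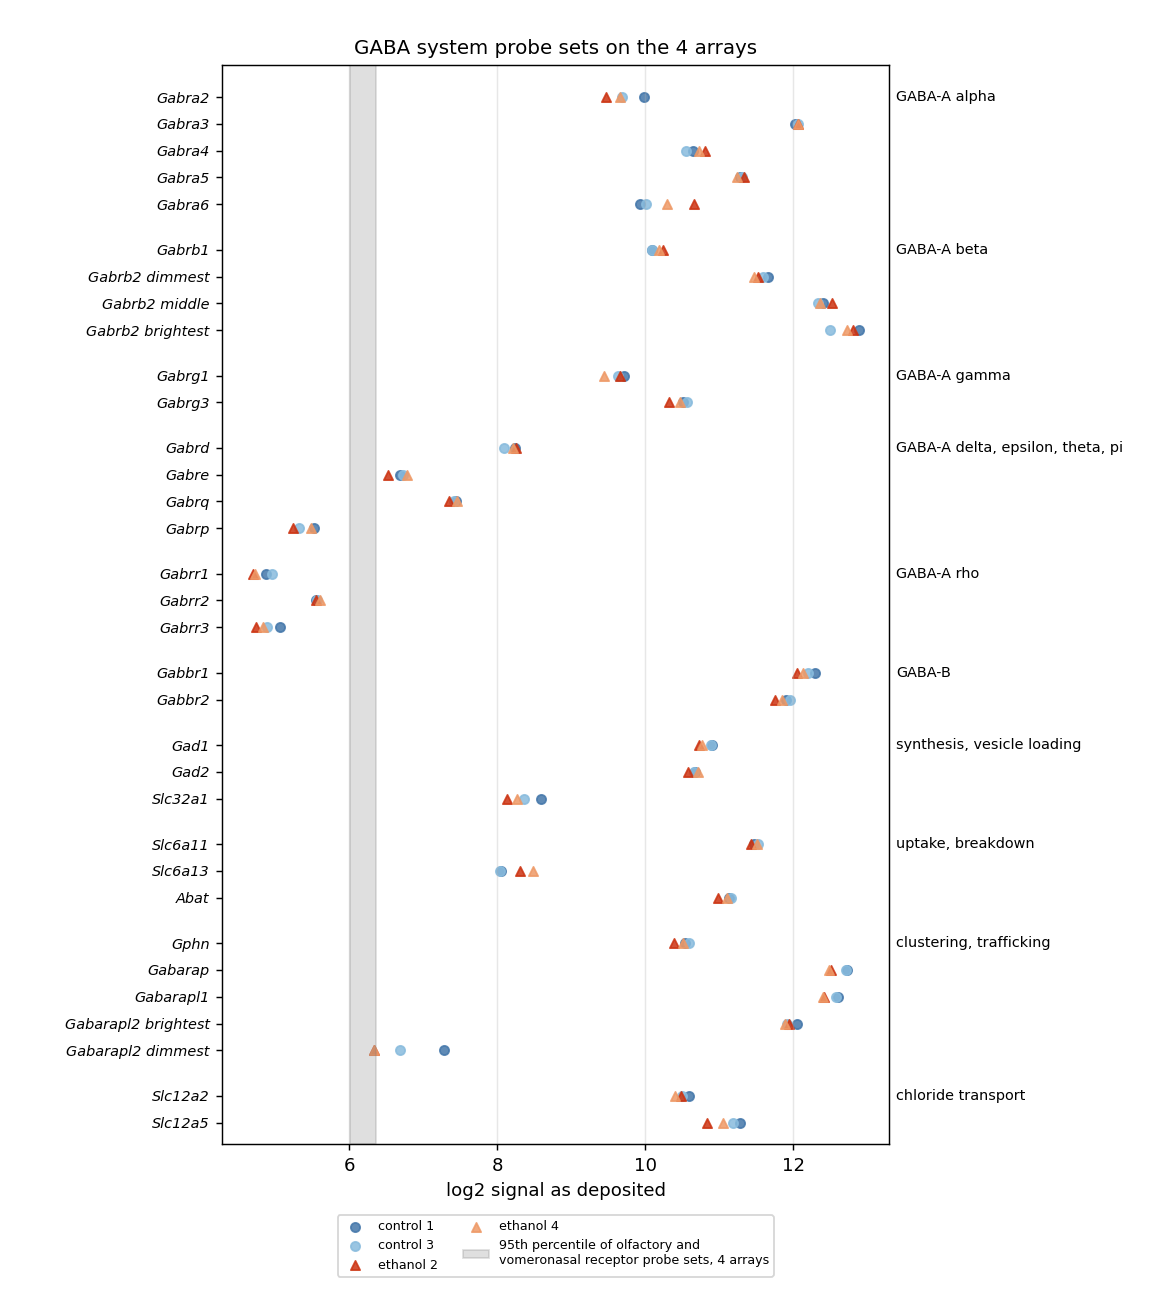
Log2 signal as deposited (x axis) of the 33 probe sets (y axis, grouped by role) on control 1, control 3, ethanol 2 and ethanol 4. Grey marks the range over the arrays of the 95th percentile of olfactory and vomeronasal receptor probe sets, and the 4 probe sets of Gabrp and the rho subunits lie below it while the ethanol points of Gabra6 and Slc6a13 lie to the right of their control points.

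To judge which transcripts were measured above the dimmest signals, the 95th percentile of 1210 probe sets for olfactory and vomeronasal receptors was taken on each array. It lay at 6.36, 6.28, 6.01 and 6.28 on control 1, control 3, ethanol 2 and ethanol 4. The probe sets of Gabrp, the pi subunit known from tissues outside the brain, and of Gabrr1, Gabrr2 and Gabrr3, the rho subunits known chiefly from the retina, were below it on all 4 arrays. The other 29 were above it on all 4. Signals of different probe sets depend on their probes, and no order of abundance is drawn from them.

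Among the alpha subunits, which help form the GABA site, Gabra6 was higher on both ethanol arrays, whereas Gabra3 and Gabra5 hardly differed. Gabra6 encodes the alpha6 subunit, found almost solely in granule cells of the cerebellum. Its signals were 9.92 and 10.01 in the control pools and 10.66 and 10.29 in the ethanol pools. Both ethanol values were above both control values, and the gap between the ethanol arrays, 0.365, was wider than that between the controls, 0.087. The difference was 0.51 (SE 0.149, n = 2 per group, limma adjusted p = 0.185), a ratio of 1.42, and 0.58 with equal quantiles (adjusted p = 0.29). It passed the limits in both forms with limma, but not with the test per gene that the methods name, which does not share the spread between probe sets. Without ethanol 2 the difference was 0.33, without control 1 it was 0.47, without control 3 it was 0.55 and without ethanol 4 it was 0.69. Grouped by the treatment entry it was 0.14 and did not pass.

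Gabra6 is a transcript of one cell type, so the other markers of that cell type were read beside it. All 9 probe sets of the cerebellar granule cell markers (Barhl1, Barhl2, Cbln1, Cbln3, En2, Neurod1, Pax6, Zic1 and Zic2) had a difference below 0 in the deposited values, where 80.2% of all probe sets had one, and their median of -0.16 was close to the general shift. In that form 0 passed the limits as higher (background 2.23%) and 1, Barhl2, as lower at -0.36 (background 17.9%). Their mean signal was 9.77 and 9.63 in the control pools and 9.51 and 9.50 in the ethanol pools. Of the 9, Barhl1 read 5.65 to 5.83, below the dim reference on all 4 arrays. With equal quantiles 8 of the 9 were lower (18119 of all 35556 probe sets were), with a median of -0.12. With arrays centred on their medians 7 of the 9 were higher (22827 of all 35556 were), with a median of 0.05. Gabra6 stood at 0.72 in that form. Gabra6 had the highest difference of the 33 members as deposited and with equal quantiles, so a lower median in a marker list was likely beforehand. Whether the share of granule cells differed was not tested. Markers of Purkinje cells, the other principal neuron of the cerebellar cortex, had 0 of 5 probe sets past the limits and a median of -0.02.

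The other alpha subunits differed less. Gabra4, the alpha4 subunit of receptors outside the synapse, had control values of 10.64 and 10.55 and ethanol values of 10.80 and 10.73. The groups did not overlap, and the difference was 0.17, or 0.23 with equal quantiles, and passed in neither form. With centred arrays it was 0.38 and passed as higher. Gabra2, the alpha2 subunit linked in human genetics to alcohol dependence, had signals of 9.99 and 9.68 in the control pools and 9.47 and 9.66 in the ethanol pools. Its difference of -0.27 was smaller than the gap of 0.302 between its own controls, and it did not pass. Gabra3 ran from 12.02 to 12.07 over the 4 arrays and Gabra5, abundant in the hippocampus, from 11.24 to 11.33. Of the 5 alpha probe sets 1 passed as higher and 0 as lower, both as deposited and with equal quantiles. Their median difference was 0.02 in both these forms, against 0.23 with arrays centred on their medians.

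The beta subunits, which line the channel together with alpha and carry sites for anchoring and phosphorylation, had 0 of 4 probe sets past the limits as deposited. Gabrb1 had control values of 10.09 and 10.10 and ethanol values of 10.24 and 10.19, which did not overlap, with a difference of 0.12. The 3 probe sets of Gabrb2 did not point the same way. The dimmest had 11.66 and 11.59 in the control pools and 11.52 and 11.47 in the ethanol pools, a difference of -0.12 (SE 0.087, n = 2 per group, limma adjusted p = 0.417). For the middle and brightest probe sets the difference was 0.08 in each case, and their groups overlapped. The brightest differed by 0.392 between the control arrays alone. With arrays centred on their medians Gabrb1 (0.33) and the middle probe set of Gabrb2 (0.29) passed as higher, and the dimmest turned to 0.09.

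The gamma subunits, whose gamma2 relative anchors receptors at synapses, were both slightly lower as deposited, with 0 past the limits. Gabrg3 had 10.51 and 10.56 in the control pools and 10.33 and 10.47 in the ethanol pools, a difference of -0.14 (SE 0.096, n = 2 per group, limma adjusted p = 0.416). Without ethanol 2 this was -0.06, and without ethanol 4 it was -0.21. Gabrg1 differed by -0.12 and its groups overlapped. With equal quantiles these came to -0.07 and -0.01, and with centred arrays both turned positive, to 0.07 and 0.09.

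Gabrd encodes the delta subunit, which joins alpha6 in cerebellar granule cells and alpha4 in the forebrain to form receptors outside the synapse. Its signals were 8.24 and 8.10 in the control pools and 8.26 and 8.21 in the ethanol pools. These overlap, and the difference of 0.07 (SE 0.096, n = 2 per group, limma adjusted p = 0.691) was smaller than the gap between its controls, 0.145. Leaving out 1 array moved it between -0.008 without control 3 and 0.14 without control 1. With equal quantiles it was 0.20 with the groups apart, and with centred arrays it was 0.28 and passed as higher. Gabre, the epsilon subunit, and Gabrq, the theta subunit, both known from hypothalamus and brainstem, differed by -0.06 and -0.02 as deposited. Gabrp differed by -0.06. All 3 were positive with equal quantiles, at 0.15, 0.16 and 0.11.

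Among the rho subunits, whose signals were all below the dim reference, the largest difference was that of Gabrr1. Its signals were 4.88 and 4.96 in the control pools and 4.70 and 4.73 in the ethanol pools, a difference of -0.21 (SE 0.087, n = 2 per group, limma adjusted p = 0.25). With equal quantiles this was -0.09 and with centred arrays 0.00. Gabrr3 differed by -0.19 and Gabrr2 by 0.02. These 3 probe sets give no level of the transcripts beyond a dim signal.

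Many of these genes lie side by side. With RefSeq on GRCm38.p6, Gabrg1, Gabra2, Gabra4 and Gabrb1 follow each other on chromosome 5 with at most 1 other protein-coding gene between neighbours, and Gabra6 and Gabrb2 are direct neighbours on chromosome 11. Differences within the chromosome 5 cluster were -0.12, -0.27, 0.17 and 0.12 in that order, so neighbours were on both sides of 0. On chromosome 11, Gabra6 was at 0.51 while its neighbour Gabrb2 ranged from -0.12 to 0.08. Gabrg3 and Gabra5 on chromosome 7 were at -0.14 and -0.01.

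Both GABA-B subunits were slightly lower on both ethanol arrays as deposited and with equal quantiles, but they were higher with centred arrays and 0 passed the limits. Gabbr1, which binds GABA, had 12.29 and 12.20 in the control pools and 12.05 and 12.13 in the ethanol pools. The difference was -0.16 (SE 0.091, n = 2 per group, limma adjusted p = 0.348). Gabbr2, which couples to the G protein, had 11.90 and 11.95 against 11.75 and 11.84, a difference of -0.13. These values are close to the general shift of -0.15, and the centred differences were 0.06 for Gabbr1 and 0.09 for Gabbr2.

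**Figure D2:**
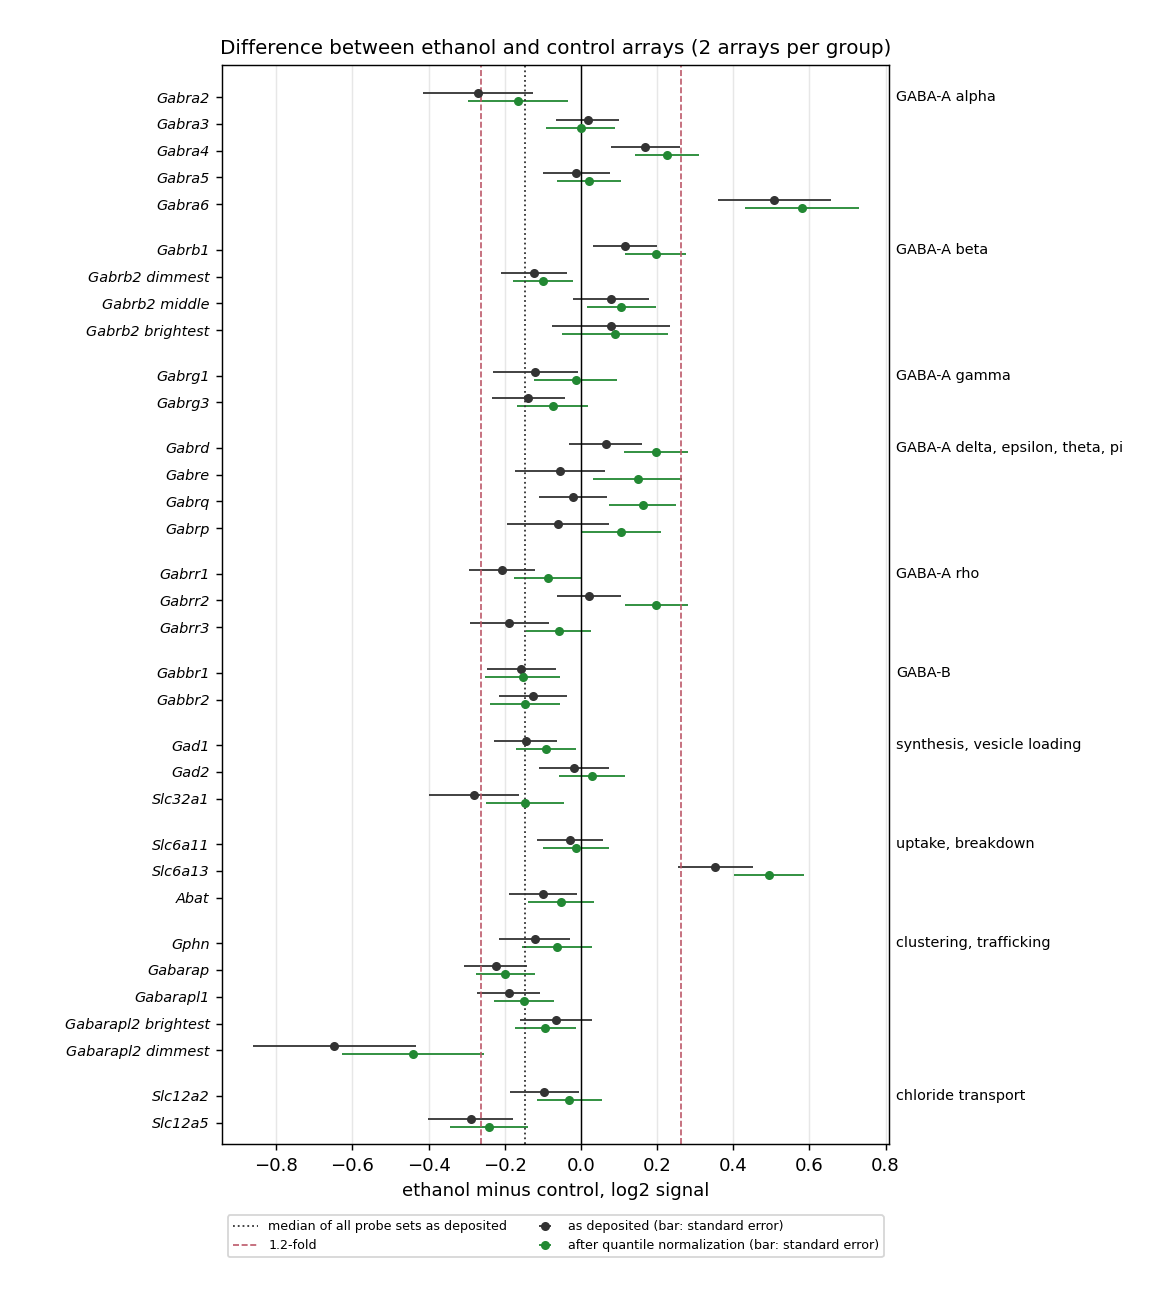
Ethanol minus control in log2 signal (x axis) for the 33 probe sets (y axis), as deposited (black) and after quantile normalization (green), with bars of 1 standard error from limma and 2 arrays per group. The dotted line is the median of all probe sets at -0.15 and the dashed lines are 1.2-fold, and Gabra6 and Slc6a13 are the only points past the right dashed line in both forms.

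For synthesis and vesicle loading, 0 of 3 probe sets passed. Gad1, the glutamate decarboxylase that makes most of the GABA in cell bodies, had 10.90 and 10.89 in the control pools and 10.73 and 10.77 in the ethanol pools, so that the groups did not overlap. Its difference was -0.15, or -0.09 with equal quantiles. Gad2, the synaptic form of the enzyme, ran from 10.58 to 10.71 and its groups overlapped, with a difference of -0.02. Slc32a1, the transporter that fills synaptic vesicles with GABA, had 8.59 and 8.37 against 8.13 and 8.26. Its difference was -0.28 (SE 0.119, n = 2 per group, limma adjusted p = 0.252) and was -0.15 with equal quantiles. Without control 1 it was -0.17, and without control 3 it was -0.39. The difference was little larger than the gap of 0.227 between its controls.

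Markers of GABAergic neurons were read beside these 3 genes. Of 25 probe sets for 24 genes, among them Pvalb, Sst, Vip, Npy and Lhx6, 0 passed as higher (background 2.23%) and 2 as lower (background 17.9%) as deposited, which were Maf at -0.32 and the dimmer probe set of Nxph1 at -0.38. The median was -0.08, and with equal quantiles it was 0.01 with 0 past the limits. Sp8 and Lhx8 of this list were below the dim reference on all 4 arrays. General neuron markers had 0 of 10 past the limits in either form, with a median of -0.11 as deposited.

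Uptake held the other probe set that passed as higher, Slc6a13. It encodes GAT2, a GABA and taurine transporter known in brain mainly from the meninges and vessels rather than from neurons. Its signals were 8.05 and 8.03 in the control pools and 8.31 and 8.48 in the ethanol pools. The 2 control values were 0.022 apart, and both ethanol values were above them. The difference was 0.35 (SE 0.099, n = 2 per group, limma adjusted p = 0.18), a ratio of 1.28, and 0.49 with equal quantiles (adjusted p = 0.218), past the limits in both forms with limma but not with the test that the methods name. Without ethanol 2 the difference was 0.44, without control 1 it was 0.36, without control 3 it was 0.34 and without ethanol 4 it was 0.27. Grouped by the treatment entry the difference turned to -0.07.

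Markers of the meninges, the choroid plexus and the vessels were set beside Slc6a13. Of 9 meningeal probe sets, 0 passed as higher (background 2.23%) and 1 as lower (Slc22a6 at -0.39, background 17.9%), with a median of -0.11, or 0.04 with equal quantiles. Their mean signal was 7.31 and 7.25 in the control pools and 7.14 and 7.15 in the ethanol pools. Col3a1 and Lum among them were below the dim reference on all 4 arrays. Of 8 choroid plexus probe sets, 0 passed as higher and 1 as lower (Kl at -0.42), with a median of -0.24, or -0.08 with equal quantiles. Of 7 endothelial probe sets, 0 passed as higher and 3 as lower, with a median of -0.26, or -0.11 with equal quantiles, where 0 passed as higher and 1 as lower. With centred arrays, where Slc6a13 was at 0.57, the meningeal and choroid plexus medians were 0.10 and -0.03. Slc6a13 was 1 of the 2 members that passed as higher, so a lower median in a marker list was likely beforehand. Whether the share of these cells differed was not tested.

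**Figure D3:**
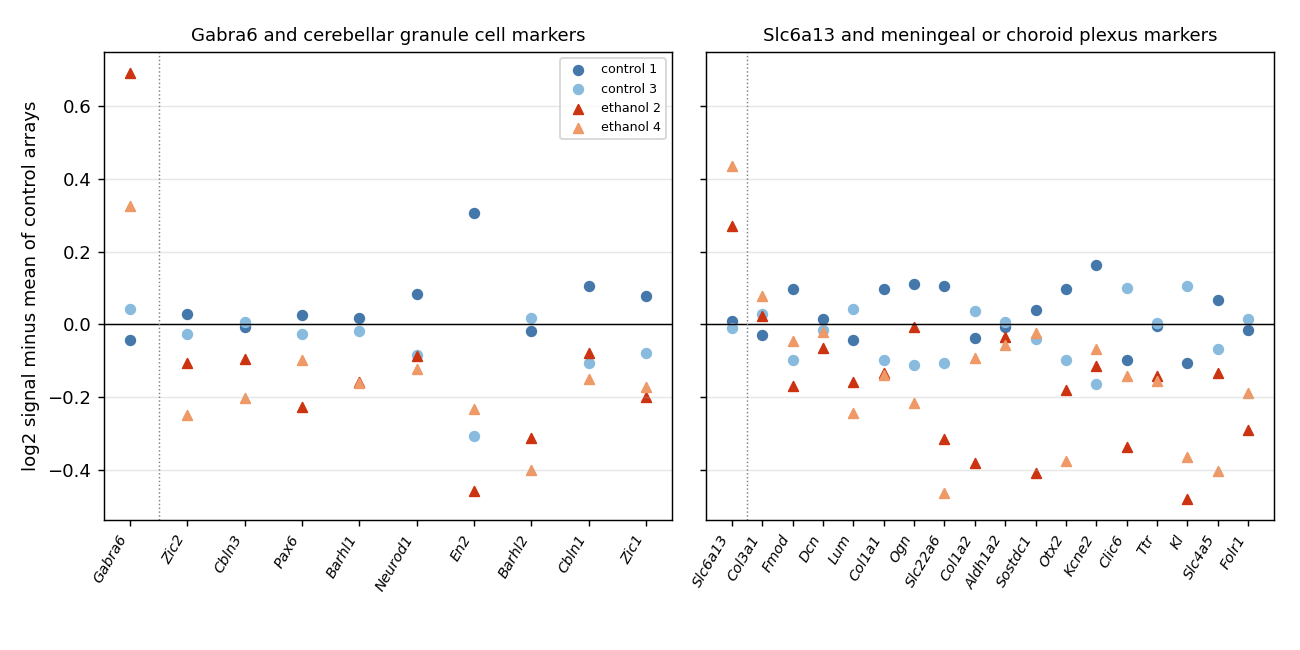
Log2 signal on each array minus the mean of the control arrays (y axis) for Gabra6 beside 9 cerebellar granule cell markers and for Slc6a13 beside 9 meningeal and 8 choroid plexus markers (x axis), as deposited. Both ethanol points of Gabra6 and Slc6a13, the 2 members that passed as higher, lie above 0. The ethanol points of the markers lie below 0 except those of Col3a1. In this form 80.2% of all probe sets had a difference below 0. With centred arrays, differences were above 0 for 7 of 9 granule cell, 7 of 9 meningeal and 2 of 8 choroid plexus markers.

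The remaining genes of uptake and breakdown were nearly level. Slc6a11, the astrocyte transporter GAT3, ran from 11.43 to 11.52 and differed by -0.03. Abat, the transaminase that breaks GABA down, ran from 10.99 to 11.16 and differed by -0.10.

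All 5 probe sets for clustering and trafficking were lower as deposited and with equal quantiles, with medians of -0.19 and -0.15. Of all 35556 probe sets, 28514 and 18119 were lower in these forms. With centred arrays 3 of the 5 were higher, as were 22827 of all probe sets. Gabarap, which links GABA-A receptors to the cytoskeleton and serves in autophagy, had 12.73 and 12.72 in the control pools and 12.51 and 12.49 in the ethanol pools. The arrays of each group were within 0.03 of each other, and the difference of -0.22 (limma adjusted p = 0.219) was short of 1.2-fold. Its relative Gabarapl1 had 12.61 and 12.58 against 12.41 and 12.40, a difference of -0.19. Gphn, gephyrin, the scaffold under inhibitory synapses, differed by -0.12. With centred arrays the 3 stood at -0.01, 0.02 and 0.09.

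The only member past the limits as lower was the dimmest probe set of Gabarapl2, another relative of Gabarap with roles in Golgi transport and autophagy. It read 7.29 and 6.68 in the control pools and 6.34 in both ethanol pools. The control arrays differed by 0.602, the widest control gap of all members, and the ethanol values were close to the dim signals of olfactory receptors. The difference was -0.65 (SE 0.215, n = 2 per group, limma adjusted p = 0.202), a ratio of 0.639. Without control 1 it was -0.35, without control 3 it was -0.95 and without either ethanol array it was -0.65. With the test that the methods name it did not pass. With equal quantiles it was -0.44 and no longer passed, and grouped by the treatment entry it turned to 0.30. The brightest probe set of the same gene read 12.04 and 11.91 against 11.94 and 11.89, a difference of -0.07 (adjusted p = 0.683).

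The annotation gives the dimmest probe set 1 transcript accession, which is also among the 6 of the brightest. Of the 10 named probe sets closest in number to the dimmest, 10 belong to genes of chromosome 8, which holds Gabarapl2, whereas for the brightest 10 of 10 belong to genes of chromosome 5. Where the probes of either align was not tested.

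The chloride transporters had 0 of 2 probe sets past the limits. Slc12a5, or KCC2, carries chloride out of mature neurons and so keeps GABA inhibitory. Its signals were 11.28 and 11.19 in the control pools and 10.84 and 11.05 in the ethanol pools. Both ethanol values were below both controls, and the difference was -0.29 (SE 0.112, n = 2 per group, limma adjusted p = 0.231), or -0.24 with equal quantiles and -0.08 with centred arrays. Without ethanol 2 it was -0.18, and without ethanol 4 it was -0.40. Slc12a2, or NKCC1, which carries chloride into immature neurons, differed by -0.10, or -0.03 with equal quantiles.

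Genes that act on these receptors and transporters were counted from lists chosen by function, and each count stands against the background in the deposited values of 2.23% higher and 17.9% lower. Of 20 probe sets for trafficking of GABA-A receptors, 1 passed as higher and 2 as lower. Hap1, which carries receptors along microtubules with a kinesin, had 8.14 and 8.40 in the control pools and 8.87 and 8.88 in the ethanol pools, a difference of 0.60 (limma adjusted p = 0.171). It also passed with equal quantiles at 0.74, unlike Trak2 and Nlgn2, which were at -0.30 each as deposited. Nlgn2, neuroligin 2, is an adhesion molecule of inhibitory synapses. Of 13 probe sets for GABA-B partners, 0 passed as higher and 1 as lower. That was Kcnj9, a subunit of the potassium channel opened by GABA-B receptors, with 8.26 and 8.31 against 7.89 and 7.86, a difference of -0.41 (limma adjusted p = 0.171), or -0.27 with equal quantiles, where it passed too.

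Among 17 probe sets for regulation of chloride, 1 passed as higher (background 2.23%) and 4 as lower (background 17.9%) as deposited, of which only the higher one passed with equal quantiles. Wnk3, a kinase that shifts the balance between NKCC1 and KCC2, had 8.82 and 8.74 in the control pools and 9.38 and 9.59 in the ethanol pools, a difference of 0.71 (limma adjusted p = 0.156). Clcn2, a chloride channel, was at -0.36 and Wnk2 at -0.31. In metabolism of GABA and glutamine, 1 of 14 probe sets passed as higher and 1 as lower, against the same background. The higher was 1 of the 2 probe sets of Glul, glutamine synthetase of astrocytes, which read 11.47 and 12.54 in the control pools and 13.06 and 13.01 in the ethanol pools. Its control arrays differed by more than 1, its difference was 1.03, and the other probe set of Glul was at 0.05. The lower was Gadl1, at -0.27. Of 9 probe sets for neurosteroid and benzodiazepine-site ligands, 0 passed in either direction.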

How the data were processed

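RNA of 4 pools was measured on arrays. According to the methods of the study, probes were summarized to gene level with RMA, an adjustment for GC content and quantile normalization in Partek Genomics Suite. The submitters' notes give version 6.6 of Partek, and the methods another. The deposited log2 values do not have the equal array medians that quantile normalization gives, since their medians ran from 6.33 for ethanol 2 to 6.61 for control 1. Why they differ was not tested. The genome build of the probe annotation is not given in the sources used here. The file had 0 value columns of other samples.

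Each probe set was fitted with limma 3.58.1 in R 4.3.3, with 2 residual degrees of freedom and 2.57 prior ones shared over all probe sets. P-values were adjusted by Benjamini-Hochberg over all 35556. Limits were 1.2-fold and an unadjusted p of 0.05, after the study's gene-level ANOVA. The procedure was run on simulated data with independent noise and no shift between arrays, so that run does not cover the shift seen here. Symbols came from the platform annotation, and 30 of 30 members were matched by Entrez ID to RefSeq (GRCm38.p6) with 0 symbols differing. Promoter windows are RefSeq's.

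Members, lists and rules were chosen with earlier results of these data known. Full statistics are given for the probe sets past the limits in either form and the member of each class with the smallest p. Of each related list, the 3 with the smallest p among those past the limits are named, and single marker genes were named after their values were seen. Alternatives were the treatment entry, the pair of arrays whose labels agree, median centring, quantile normalization, a mean log2 of at least 5, the methods' ANOVA, each array left out, both pairings, and 1 probe set per gene. The precision is limited by the number of arrays, which give no count of molecules.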

Additional observations from a re-analysis of the deposited data

How the results depend on the processing

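With 2 arrays per group, each call rests on few values. The count of members past the limits as lower was 1 as deposited. It was 0 under the treatment entry, centred arrays, quantile normalization, the methods' ANOVA and 1 probe set per gene. The count of those higher, 2 as deposited, was 0 under the treatment entry and under the methods' ANOVA, and 6 with centred arrays. Leaving out an array leaves 1 in a group, and no count or call is drawn from those fits. Shares over all probe sets were counted for the deposited values, the treatment entry, centred arrays and quantile normalization only. The median relative to all probe sets, 0.05 as deposited, was 0.01 under the treatment entry, -0.026 with quantile normalization, 0.086 over probe sets with a mean log2 of at least 5 and 0.04 to 0.072 with an array left out. Its SD between arrays of a group was 0.0209.

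Under the treatment entry the sign turned for the dimmest probe set of Gabrb2 (0.06), Gabbr1 (0.003), Slc32a1 (0.047), Slc6a13 (-0.073) and the dimmest of Gabarapl2 (0.30), and 18 of the 33 members kept their sign. Centring turned the dimmest of Gabrb2 (0.088), Gabrg3 (0.074), Gabrr1 (0.004) and Gabbr1 (0.055), and 14 kept their sign. Gabrd ran from -0.008 without control 3 to 0.14 without control 1. With an array left out, the dimmest probe set of Gabarapl2 ran from -0.95 without control 3 to -0.35 without control 1, and was at -0.65 without either ethanol array. Centring moves the difference of every probe set up by the same amount, and it took the median of all probe sets from -0.146 to 0.066. The cause of the other changes was not tested.

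Per the labels, ethanol and saline pups were littermates, but no label ties 1 pool to another, so both pairings were run as a replicate block. With control 1 paired to ethanol 4, 3 members passed as lower, since Slc32a1 (-0.28) and Slc12a5 (-0.29) joined. With control 1 paired to ethanol 2, 2 passed as higher and 1 as lower, as without pairing. The share of all probe sets passing was not counted for either pairing.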
